A study of Mus musculus with 7 samples.

Results

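The 10 genes described here encode acute-phase and innate defence proteins that are secreted: the serum amyloid A genes Saa1, Saa2 and Saa3, Lcn2, Chil1, Hp, Orm1, C3, Cp and Ltf. They were taken by name, each through the RefSeq accession of its array probe. Lcn2, for the siderophore-binding protein lipocalin, had no probe matched by accession, which left 9 genes with 1 probe each, among 13971 genes named in this way. The genes were chosen from the values of these same arrays, so the levels and ratios below are descriptions, with no test.

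The data are 7 CodeLink Mouse Whole Genome arrays of mammary glands kept in organ culture, 1 array per group. Glands came from female mice 4 weeks old and were cultured in serum-free medium, with insulin, prolactin, aldosterone and hydrocortisone for 10 days of growth and then, for the 24-day arrays, with insulin alone for 14 days of regression. The 3 arrays of the study's genotypes held glands of wild-type (WT) C57 mice, αERKO mice (no functional estrogen receptor α, on a C57BL6/129SV background) and βERKO mice (the same background, estrogen receptor β), all after 24 days. For these 3 genotypes the methods describe the carcinogen DMBA (7,12-dimethylbenz[a]anthracene), given at 2 µg/ml for 24 h from day 3, and RNA pooled from 5 mice; only the title of the WT array names DMBA. The labels describe in vivo treatment beforehand of C57, αERKO and βERKO mice with estrogen (1 µg) and progesterone (1 mg) for 9 days, and also with EGF (25 ng) and progesterone (1 mg) daily for 5 days; the study names EGF and progesterone for the arrays of the 3 genotypes. The labels do not say which of these treatments each of the remaining arrays had. In addition, by the methods the WT and βERKO glands carried lesions induced by DMBA while the αERKO glands carried none. The same methods say that the lesion-free αERKO glands yielded nothing for molecular analysis. The discussion instead describes RNA of αERKO glands without lesions, and the series holds an αERKO array. This conflict within the study could not be settled here. The other 4 arrays held WT glands after 10 days and after 24 days without DMBA, and BALB/c wild-type glands after 24 days without and with vitamin D5. For the BALB/c arrays the titles state neither DMBA nor a dose of vitamin D5. Their strain differs from the C57 of the WT arrays and from the C57BL6/129SV background of the knockouts. Between either knockout array and WT, background differs along with genotype, and they cannot be told apart here.

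With 1 array per group there is no replicate error, and the number of arrays limits the precision. The level of a gene is the log2 of its probe's background-subtracted intensity over the median of all gene probes on that array, so 0 is the median probe. A spot is called good where the scanner software found it measurable above background and well formed. Between 68.4% and 74.2% of gene probes were good per array. Luminal keratin and junction genes were good for 10 of 10 markers on all 7 arrays, as the tissue label requires. The αERKO array stood apart: its summed level of 9 skeletal muscle genes was 1956 times the array median, against 10.1 to 51.4 on the other 6. The Esr1 probe (estrogen receptor α) was good on only 2 arrays, WT with DMBA and BALB/c with vitamin D5, and so checks little. The Esr2 probe (estrogen receptor β) had its highest level, 0.87, on the array labelled βERKO, which goes against that label. By the methods all mice were genotyped before use. Which part of the transcript this probe reads was not examined, so the probe does not settle the label. Every direction given below for that array rests on a label that these data could not check.

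Acute-phase proteins are secreted in inflammation, mainly by the liver but also by epithelia, adipocytes and leukocytes. Their genes respond to interleukins 1 and 6 and to tumor necrosis factor, through transcription factors of the NF-κB, C/EBP and STAT families. In the mammary gland several of them enter milk or rise during involution, the regression of the gland after milk production stops. Serum amyloid A proteins travel with lipoproteins and act on leukocytes; haptoglobin (Hp), ceruloplasmin (Cp) and lactoferrin (Ltf) bind hemoglobin, copper and iron.

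Saa1, Saa2, Saa3 and Chil1 differed most among the 7 arrays, and the 250 bases before their transcription starts are shown because the rest of this account turns on these genes. The sequences are those of RefSeq for GRCm38.p6, each 5′ to 3′ on the strand of its gene: Saa3 at chr7:46715677-46715926 on the minus strand, Saa1 at chr7:46742981-46743230 on the minus strand, Saa2 at chr7:46751583-46751832 on the plus strand and Chil1 at chr1:134181906-134182155 on the plus strand. Capitals mark matches, on either strand, to a C/EBP motif (TTNNGNAA), a STAT motif (TTCNNNGAA), a partial estrogen response element (GGTCA) or an NF-κB consensus.
Saa3: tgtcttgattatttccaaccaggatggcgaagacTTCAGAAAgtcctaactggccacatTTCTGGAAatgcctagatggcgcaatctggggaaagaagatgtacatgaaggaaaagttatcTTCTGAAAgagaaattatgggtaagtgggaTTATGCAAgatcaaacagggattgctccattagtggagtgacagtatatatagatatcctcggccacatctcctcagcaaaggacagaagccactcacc
Saa1: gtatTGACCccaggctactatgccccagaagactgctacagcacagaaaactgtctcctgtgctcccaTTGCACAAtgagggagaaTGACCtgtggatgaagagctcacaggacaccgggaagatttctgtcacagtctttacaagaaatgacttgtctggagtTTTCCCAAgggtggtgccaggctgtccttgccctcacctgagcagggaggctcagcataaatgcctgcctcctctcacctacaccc
Saa2: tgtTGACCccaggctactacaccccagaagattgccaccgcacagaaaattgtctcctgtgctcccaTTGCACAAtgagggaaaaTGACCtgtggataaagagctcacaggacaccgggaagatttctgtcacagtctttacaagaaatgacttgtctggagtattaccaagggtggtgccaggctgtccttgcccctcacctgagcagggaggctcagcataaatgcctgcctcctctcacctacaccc
Chil1: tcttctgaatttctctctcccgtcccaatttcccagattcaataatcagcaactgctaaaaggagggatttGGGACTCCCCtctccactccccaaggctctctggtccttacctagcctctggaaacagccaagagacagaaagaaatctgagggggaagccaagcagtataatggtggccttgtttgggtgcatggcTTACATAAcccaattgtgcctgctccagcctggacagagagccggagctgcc

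Saa1 and Saa2 are neighbours on chromosome 7 and run in opposite directions. Their 250 bases were 94.8% identical over 251 aligned columns, while Saa1 and Saa3 shared 52.2% and Saa3 and Chil1 50.3% of theirs. Saa3 held 4 matches to the C/EBP motif, among them TTATGCAA at 99 to 92 bases before the start. Saa1 held 2 C/EBP matches and Saa2 held 1; the one they shared, TTGCACAA, lay 182 to 175 bases before the start of Saa1 and 183 to 176 before that of Saa2. Both also held 2 partial estrogen response elements, and Saa3 and Chil1 held none. Chil1 held the only NF-κB match among the 8 genes with a sequence, Lcn2 included, GGGACTCCCC at 179 to 170 bases, and 1 C/EBP match. No STAT match was found in the 8 genes. Ltf held 1 partial estrogen response element, 45 to 41 bases before its start. C3 held 2, at 242 to 238 and 168 to 164 bases. Of all 32851 windows of this length, 36.8% held the C/EBP motif, 35.2% the partial estrogen response element, 7.25% the NF-κB consensus and 7.02% the STAT motif. A match is a run of letters and no measure of binding, and Hp and Orm1 were not searched.

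Saa3, the serum amyloid A gene made mainly outside the liver (probe GE36035), had log2 levels of -0.24 in αERKO glands, 6.15 on the array labelled βERKO, 6.76 in WT with DMBA, 6.54 in WT at 10 days, 4.40 in WT at 24 days, 7.10 in BALB/c and 8.03 in BALB/c with vitamin D5. It was good on all 7. The αERKO value lay below the array median while the other 6 lay far above it, and the nearest of them, WT at 24 days, was 25.0-fold higher. Across arrays Saa3 spanned 8.26 log2 units, the 11th widest range of 9338 genes good on every array, whose median range was 1.05.

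Chil1 encodes a chitinase-like protein without enzyme activity, first described in the regressing mammary gland (probe GE33072). Its levels were -0.02 in αERKO glands, 6.58 on the array labelled βERKO, 4.28 in WT with DMBA, 6.70 in WT at 10 days, 4.63 in WT at 24 days, 6.96 in BALB/c and 7.89 in BALB/c with vitamin D5. As for Saa3, the αERKO array was lowest, here 19.7-fold below the next, and BALB/c with vitamin D5 highest. The range of 7.91 log2 units ranked 15th of the 9338 genes. WT with DMBA was 5.13-fold above WT at 24 days for Saa3 but 1.28-fold below it for Chil1, and the array labelled βERKO was 1.53-fold below WT with DMBA for Saa3 but 4.95-fold above it for Chil1.

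Saa1, a serum amyloid A gene induced in the liver (probe GE33611), had levels of -1.70 in αERKO glands, 0.91 on the array labelled βERKO, 4.39 in WT with DMBA, 2.39 in WT at 10 days, 2.72 in WT at 24 days, 3.12 in BALB/c and 4.58 in BALB/c with vitamin D5. Saa2, its close copy (probe GE119307), had -2.63, -0.14, 2.19, 0.62, 0.43, 1.98 and 3.49 in the same order. Neither was above background on the αERKO array, and both were good elsewhere, where the array labelled βERKO was lowest and WT with DMBA and BALB/c with vitamin D5 were the highest pair. Saa2 on the array with vitamin D5 was over 2-fold above every other array. After centring each gene on its mean over arrays, Saa1 and Saa2 differed by a root mean square of 0.53 log2 units, a value that includes their αERKO levels near background. Saa3 and Chil1, both good on all 7 arrays, differed by 0.93, while the root mean squares of their own centred levels were 2.57 and 2.48. Both own values include the αERKO array, where Saa3 lay 25.0-fold and Chil1 19.7-fold below the next array. They therefore show no likeness over the other arrays, which was not measured apart. Hp and Cp differed by 0.74, more than their own 0.56 and 0.33, so that value, though smaller than 0.93, marks no likeness. The probe sequences were not used here, so how far each of these probes reads the other transcript was not tested.

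Ltf, the iron-binding protein of milk and neutrophil granules (probe GE33962), had levels of 4.64 in αERKO glands, 4.17 on the array labelled βERKO, 3.49 in WT with DMBA, 5.72 in WT at 10 days, 2.95 in WT at 24 days, 5.03 in BALB/c and 6.59 in BALB/c with vitamin D5. Unlike the serum amyloid A genes, it was not lowest on the αERKO array; the 2 lowest values were both of WT glands at 24 days. C3, the central protein of the complement cascade (probe GE32929), had levels of 3.87, 1.13, 3.53, 2.66, 2.80, 2.45 and 3.86 in the same order, with the spot of the last array not called good. The array labelled βERKO was the low one for C3, over 2-fold below the next.

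Orm1, for the plasma carrier alpha-1-acid glycoprotein (probe GE34148), had levels of 6.55 in αERKO glands, 6.77 on the array labelled βERKO, 6.78 in WT with DMBA, 3.66 in WT at 10 days, 5.26 in WT at 24 days, 3.35 in BALB/c and 3.93 in BALB/c with vitamin D5. The 3 arrays of the study's genotypes lay within 0.23 log2 units of each other and above the other 4. Hp (probe GE37215) had levels of 6.73, 7.44, 6.94, 6.01, 5.79, 6.03 and 6.84 in the same order, with a range of 1.65 log2 units. Cp (probe GE34879) stayed between -0.51 and 0.41, a range of 0.92, below the median range of all genes.

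**Figure D1:**
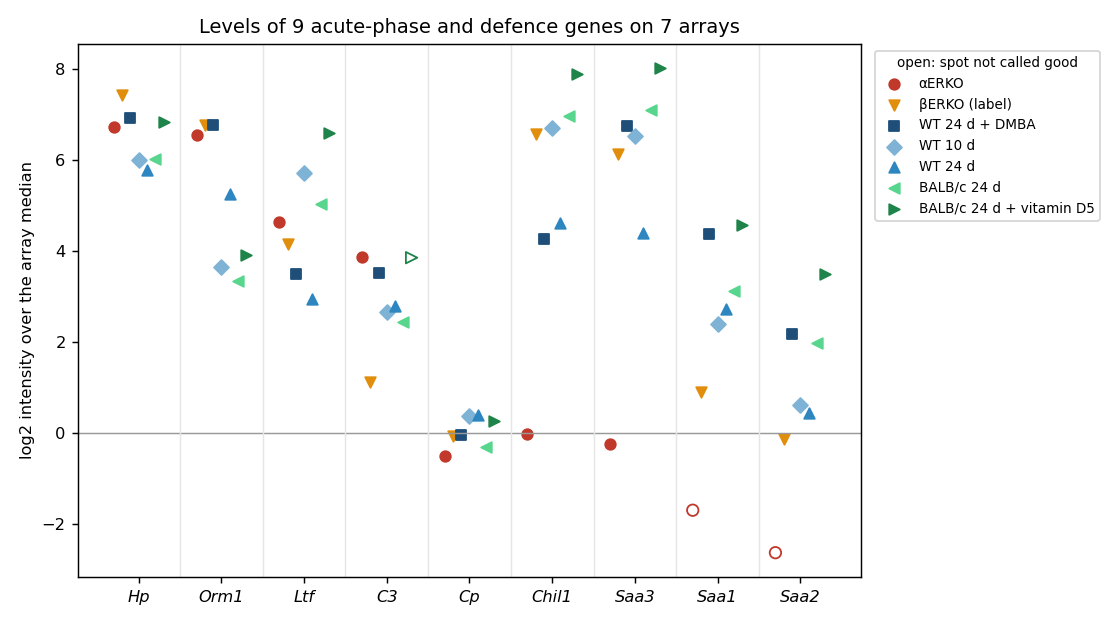
Level of each of the 9 genes on the 7 arrays, as log2 of intensity over the array median; each point is 1 array, open points are spots not called good, and values can be compared within a gene but not between genes. Saa3, Chil1, Saa1 and Saa2 have their lowest point on the αERKO array, as does Cp within its narrow range (-0.51), whereas Hp, Orm1, Ltf and C3 do not.

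**Figure D2:**
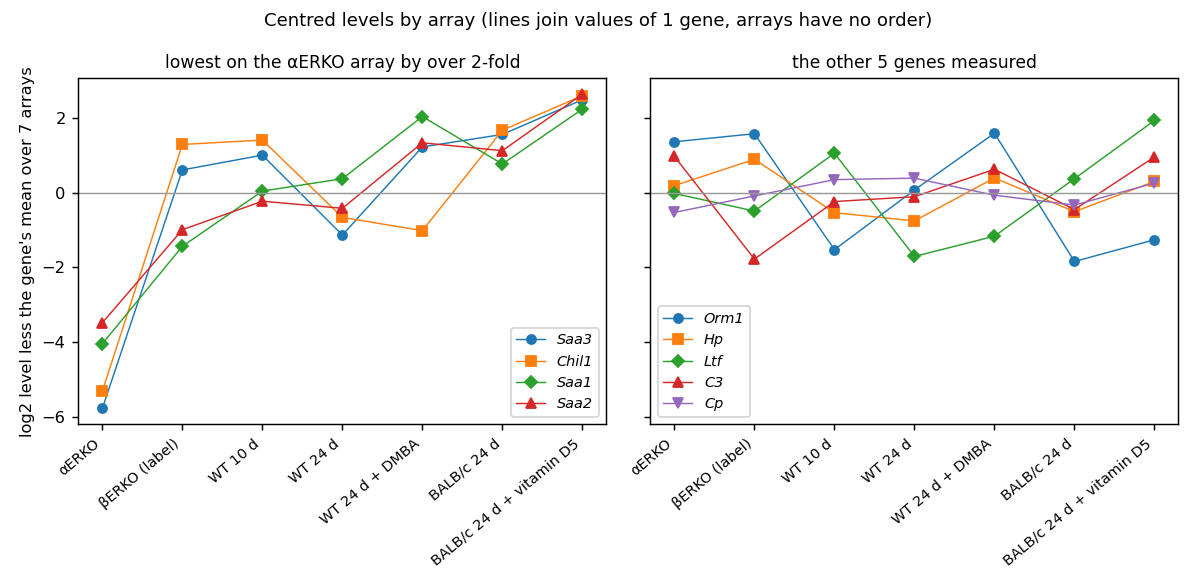
The same levels less each gene's mean over the 7 arrays, with the genes split by whether the αERKO array lay over 2-fold below every other array; lines join the values of 1 gene and the arrays have no order. Saa1 and Saa2 run close together, with a root mean square difference of 0.53 log2 units that includes αERKO values near background, and the genes of the right panel share no common shape.

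Against WT with DMBA, αERKO glands had lower serum amyloid A and Chil1 signal, with little difference in Hp, Orm1, C3 and Cp. Lower by over 2-fold in αERKO glands were 4 of the 9, against a background of 15.2% of 12189 genes, and 1 was over 2-fold higher, against 10.2%. Saa3 was lower by 128-fold, a log2 ratio of -7.00 that was the lowest of all genes good on both arrays. Chil1 was lower by 19.7-fold, a log2 ratio of -4.30. Saa1 and Saa2 were near background on the αERKO array. With their values there raised to the lowest good signal of that array, Saa1 was 57.9-fold and Saa2 12.6-fold lower. That signal, -1.47, is no strict detection limit, because the interleukin 1 beta gene Il1b was near background there at -1.25. The folds hold for the deposited background subtraction. With normexp background correction the log2 ratios were -3.93 for Saa1 and -2.09 for Saa2, beside -5.85 for Saa3 and -3.33 for Chil1. Ltf was the one gene over 2-fold higher, with a log2 ratio of 1.14, and with normexp it had 0.88, within 2-fold. The ratios of Hp, Orm1, C3 and Cp lay between -0.46 and 0.34. The median log2 ratio of the 9 genes was -0.46, against -0.17 over all genes counted.

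Different probes of 1 accession gave log2 ratios with an SD of 0.60 per probe, taken from 516 pairs in this comparison. This is the spread between probes on the same arrays and not between animals. The ratios of Saa1, Saa2, Saa3 and Chil1 were all larger than this spread, and that of Ltf was less than 2 such SDs. Of the 9726 genes good on the other 6 arrays, 7.05% lay over 2-fold below all 6 on the αERKO array, and Saa1, Saa2, Saa3 and Chil1 were among them. On the same array the summed markers of luminal epithelium (578.9, against 698.2 to 1442 elsewhere) and basal epithelium (107.4, against 272.6 to 835.0) were the lowest of the 7, and those of skeletal muscle and adipocytes (2799, against 326.0 to 2097) the highest. The lymphocyte markers summed to 64.8 there, against 13.1 to 15.5, although Cd3e was near background on all 7. Against WT with DMBA, macrophage markers summed to 161.9 and 637.7, with 7 of 9 over 2-fold lower, milk secretion markers to 180.5 and 389.9, and fibroblast markers to 408.3 and 204.2. The part of these in the result was not tested, and in bulk tissue fewer cells of a type cannot be told apart from less RNA per cell.

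Against WT with DMBA, the array labelled βERKO had lower Saa1, Saa2 and C3 and higher Chil1. Of the 9 genes, 3 were over 2-fold lower, against 7.29% of 12077 genes, and 1 was higher, against 6.62%. Saa1 was lower by 11.1-fold, with a log2 ratio of -3.48 that ranked 23rd from the lowest of all genes good on both arrays. Saa2 had a log2 ratio of -2.33 and C3 of -2.40. Chil1 was 4.95-fold higher, with a log2 ratio of 2.31, opposite in direction to Saa1 and Saa2. Saa3, at -0.62, was within 2-fold, so the serum amyloid A genes did not move as a block. The SD between probes was 0.37, and the median ratio was -0.02, against 0.14 over all genes counted. Macrophage markers summed to 91.2 on the array labelled βERKO and 637.7 in WT with DMBA, fibroblast markers to 66.2 and 204.2, and skeletal muscle markers to 51.4 and 14.7; their part in the result was not tested.

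Set directly against the array labelled βERKO, the αERKO array was lower by over 2-fold for 4 genes, against 20.2% of 12006 genes, and higher for 1, against 11.8%. Chil1 was lower by 97.3-fold, with a log2 ratio of -6.60, and Saa3 by 83.6-fold, with -6.39; these ranked 5th and 6th from the lowest of all genes good on both. With their αERKO values raised to the lowest good signal, Saa1 was 5.20-fold and Saa2 2.51-fold lower with the deposited background subtraction. With normexp both were within 2-fold, at -0.97 and -0.57. C3 was the one gene over 2-fold higher, with 2.75. The 3 comparisons among these arrays share them, so their counts are not independent. The SD between probes was 0.56, and the median ratio was -0.70, against -0.30.

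**Figure D3:**
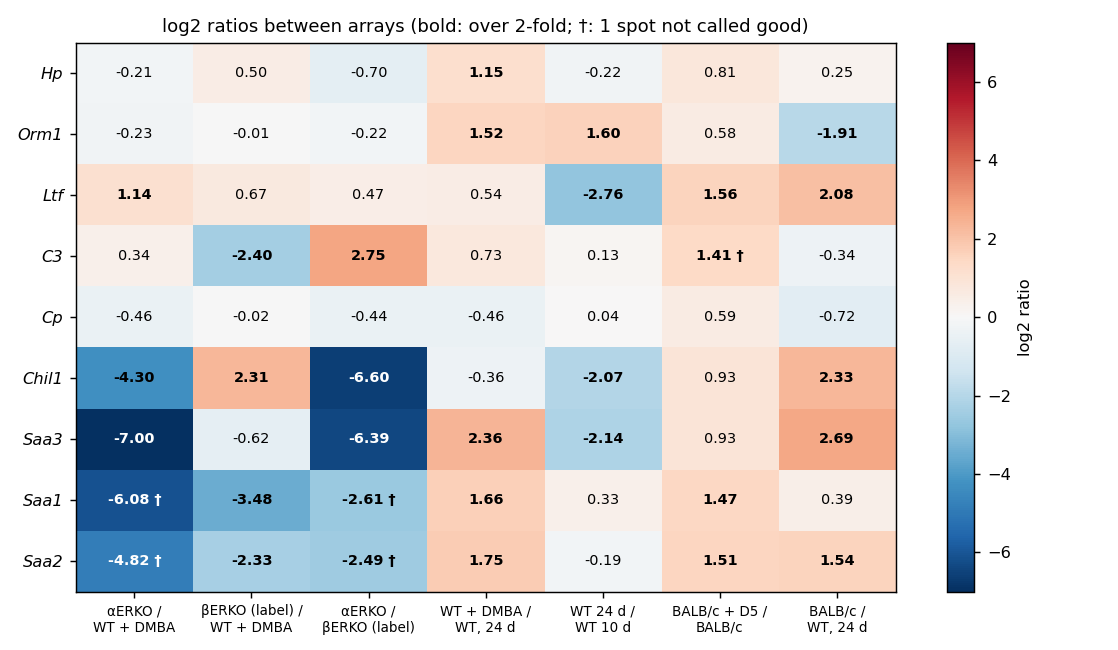
log2 ratio of each of the 9 genes in the 7 comparisons between arrays; blue is lower and red higher in the first-named array, bold marks over 2-fold and a dagger marks 1 spot not called good. The darkest cells are those of Saa3 (-7.00 and -6.39) and Chil1 (-6.60) on the αERKO array. Ratios with a dagger there are measured values, not raised to the lowest good signal.

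In WT glands at 24 days, 5 of the 9 genes were over 2-fold higher with DMBA than without it and 0 were over 2-fold lower, against 11.6% and 7.79% of 12150 genes. Saa3 was highest, with a log2 ratio of 2.36, followed by Saa2 with 1.75, Saa1 with 1.66, Orm1 with 1.52 and Hp with 1.15. C3 (0.73), Ltf (0.54), Chil1 (-0.36) and Cp (-0.46) were within 2-fold. The median ratio was 1.15, against -0.15 over all genes, and the SD between probes was 0.31. The macrophage markers summed to 637.7 with DMBA and 148.8 without, fibroblast markers to 204.2 and 13.4, adipocyte markers to 2097 and 1205, and luminal markers to 698.2 and 1442; their part in the result was not tested.

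Between 10 and 24 days of culture of WT glands without DMBA, a span in which the hormones other than insulin were withdrawn, 3 of the 9 genes were over 2-fold lower at 24 days, against 4.34% of 11887 genes, and 1 was higher, against 5.47%. Ltf was lower by 6.80-fold, with a log2 ratio of -2.76 that ranked 18th from the lowest. Saa3 (-2.14) and Chil1 (-2.07) were lower with it, and Orm1 was higher, with 1.60. Saa1 (0.33) and Saa2 (-0.19) stayed within 2-fold while Saa3 did not. The median ratio was -0.19, against 0.16, and the SD between probes was 0.23. Summed basal epithelial markers were 730.0 at 10 days and 281.8 at 24 days, and adipocyte markers 460.2 and 1205; their part was not tested.

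All 9 genes were higher in BALB/c glands with vitamin D5 than without it, by log2 ratios from 0.58 to 1.56. Of these, 4 were over 2-fold higher, against 4.41% of 12177 genes, and 0 were lower, against 4.39%. Ltf had the largest ratio, 1.56, followed by Saa2 with 1.51, Saa1 with 1.47 and C3 with 1.41, where the C3 spot on the array with vitamin D5 was not called good. Saa3 and Chil1 both had 0.93, Hp 0.81, Cp 0.59 and Orm1 0.58. The median ratio was 0.93, against 0.16, and the SD between probes was 0.23. Markers of neutrophils summed to 65.0 with vitamin D5 and 49.5 without, those of basal epithelium to 835.0 and 594.7, and those of milk secretion to 264.5 and 107.5; their part was not tested.

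BALB/c glands at 24 days had higher Saa3, Chil1, Ltf and Saa2 than WT C57 glands at 24 days without DMBA, and lower Orm1. Of the 9 genes, 4 were over 2-fold higher, against 6.22% of 12113 genes, and 1 was lower, against 12.2%. The log2 ratios were 2.69 for Saa3, 2.33 for Chil1, 2.08 for Ltf, 1.54 for Saa2 and -1.91 for Orm1. Saa1 had 0.39. Because DMBA is not stated for the BALB/c glands, the C57 array with DMBA was also used as the comparator: Chil1 then had 2.69 and Ltf 1.54, but Saa3 had 0.33, and Saa1 (-1.27), Saa2 (-0.21) and Hp (0.25 to -0.90) turned direction. Orm1 then had -3.43 and C3 -1.08. The median ratio was 0.39, against -0.31, with the comparator without DMBA, and -0.26 with the other. The SD between probes was 0.33. Macrophage markers summed to 17.9 in BALB/c and 148.8 in WT without DMBA, adipocyte markers to 438.9 and 1205, basal epithelial markers to 594.7 and 281.8, and neutrophil markers to 49.5 and 22.0; their part in the result was not tested. Strain, DMBA and culture cannot be told apart here.

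The cytokines that induce these genes were partly below detection. Il1b, for interleukin 1 beta, was near background on all 7 arrays. Il6, for interleukin 6, was good on 5 arrays, with its highest level, 2.81, on the array labelled βERKO, and near background on the αERKO array at -1.68. Tnf was good on 4 arrays and near background on the αERKO array at -2.33. Of 9 cytokine genes with a probe, 5 could be counted in αERKO against WT with DMBA. Of these, 1 was higher and 1 lower, against 10.2% and 15.2% of all genes. Against the array labelled βERKO, 4 of 6 were lower and 1 higher, against 20.2% and 11.8% of all genes. Osm, for oncostatin M of the interleukin 6 family, had a log2 ratio of -1.46 with both spots good. The other lower genes, Il6, Il11 and Tnf, and the higher one, Ifng, each had 1 spot not called good.

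Receptors and signalling genes of the pathway were lower on the αERKO array than in WT with DMBA for 8 of 20 counted and higher for 0, with a median log2 ratio of -0.75; over all genes 15.2% were lower and 10.2% higher. For this and the lists that follow, the shares over all genes given with each comparison above are the background. Stat3, the transcription factor downstream of interleukin 6, was lower by 6.32-fold, with a log2 ratio of -2.66, and Cebpb, a C/EBP factor, by 4.42-fold, with -2.14. On the array labelled βERKO against WT with DMBA the same list had 2 higher and 0 lower of 22, with a median of 0.19. With DMBA against none in WT, 1 was higher and 1 lower of 21, with a median of 0.15. With vitamin D5 it had 2 higher and 1 lower of 22, with a median of 0.52, and between 10 and 24 days 1 higher and 0 lower of 22. In BALB/c against WT without DMBA, 3 of 21 were lower, near the 12.2% over all genes, and 0 higher; the lower ones included Rela, an NF-κB subunit, with -1.18, and Il6st, the shared receptor chain of the interleukin 6 family, with -1.18.

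Other acute-phase genes were split on the αERKO array against WT with DMBA, with 1 higher and 5 lower of 13 counted and a median of -0.62. The Orm1 copy Orm2 was lower by 10.6-fold there, with a log2 ratio of -3.40, while Orm1 itself had -0.23. On the array labelled βERKO the third copy Orm3 was lower, with -1.94, as was Lbp, the lipopolysaccharide-binding protein, with -2.79. Hpx, the heme-binding protein hemopexin, was higher there, with 2.67. With DMBA in WT, Orm2 (1.80) and Orm3 (1.77) were higher beside Orm1 (1.52), and were 2 of the 4 genes of this list that were higher among 14 counted. At 24 against 10 days, Serpina3n, a serine protease inhibitor, was higher by 13.1-fold, with 3.72, and in BALB/c against WT it was lower by 20.2-fold, with -4.34. The Orm genes are related copies, and how far their probes read each other was not tested.

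Complement genes other than C3 differed in both directions. On the αERKO array against WT with DMBA, 8 of 16 counted were higher and 5 lower, with a median of 0.68. C1s1, a protease of the C1 complex, was higher, with 3.12, as was Cfb, factor B of the alternative pathway, with 2.61. C3ar1, the receptor for the C3a fragment, was lower, with -4.24, and C1qc, a subunit of C1q made by macrophages, had -2.56. On the array labelled βERKO, where C3 itself was lower, 6 of 16 were lower and 1 higher, with C1qc at -4.29 and C1qa at -4.19. With DMBA in WT, 10 of 16 were higher and 0 lower, with a median of 1.74, and C1qc had 3.09. The macrophage markers include C1qa, C1qb and C1qc.

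Other secreted defence genes were lower for 9 of 18 and higher for 3 on the αERKO array against WT with DMBA, with a median of -0.96. Defb1, an epithelial defensin, had -3.89 and Lyz1, a lysozyme, had -2.99. On the array labelled βERKO against WT with DMBA, 5 were higher and 5 lower of 18, with Ptx3, a pentraxin of innate defence, at 2.93 and Slpi, an epithelial protease inhibitor, at 2.46, both in the direction of Chil1. With DMBA in WT, Slpi was lower by 6.40-fold, with -2.68, where Saa3 was higher. Pglyrp1, a peptidoglycan-binding protein of neutrophil granules, had -2.75 at 24 against 10 days, 1.39 with vitamin D5 and 2.26 in BALB/c against WT, beside Ltf ratios of -2.76, 1.56 and 2.08. With DMBA against none in WT they parted, with 1.58 for Pglyrp1 and 0.54 for Ltf. S100a9, a calprotectin subunit, had -3.25 at 24 against 10 days and 1.36 with vitamin D5.

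Receptors and partners of the 9 proteins were lower on the αERKO array than in WT with DMBA for 9 of 13 counted and higher for 0, with a median of -1.46. Cd163, the macrophage receptor for haptoglobin bound to hemoglobin, had -2.25, while Hp had -0.21. Against the array labelled βERKO, 5 of 11 were lower and 0 higher. This list shares Cd163 and Itgam with the macrophage markers, and the part of macrophages in its counts was not tested. With DMBA in WT, 8 of 13 were higher and 0 lower, with a median of 1.24. In BALB/c against WT, 7 of 12 were lower and 1 higher. With vitamin D5, where 4 of the 9 genes were over 2-fold higher, 0 of 10 receptors and partners were over 2-fold higher and 1 was lower. Their median log2 ratio was 0.42, against 0.16 over all genes.

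**Figure D4:**
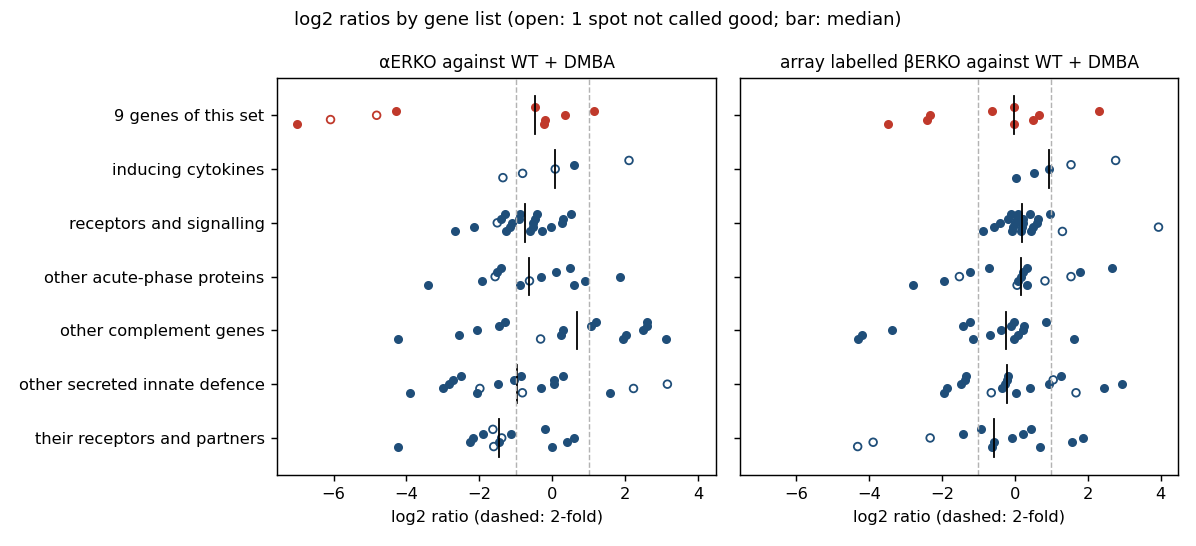
log2 ratio of the 9 genes and of each list of related genes against WT with DMBA, on the αERKO array (left) and the array labelled βERKO (right); each point is 1 gene, open points have 1 spot not called good, bars are medians and dashed lines mark 2-fold. On the left the receptors and signalling list and the list of receptors and partners hold 0 genes over 2-fold higher.

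By the root mean square difference of centred levels over the 7 arrays, the nearest of the genes good on all arrays to Chil1 was Cxcl1, a neutrophil-attracting chemokine, at 0.57, followed by Krt17, a basal keratin, at 0.68. Cxcl1 had levels of 0.10 in αERKO glands and 7.11 on the array labelled βERKO. Nearest to Saa3 were Prl2c3, of the prolactin family, at 1.20, Car12, a carbonic anhydrase, and Ceacam1, an adhesion molecule, none as close as Chil1 at 0.93. Like Saa3 and Chil1, the genes Cxcl1, Krt17, Prl2c3, Car12 and Ceacam1 all had their lowest level on the αERKO array. These distances therefore show no likeness over the other arrays, which was not measured apart. Nearest to Ltf were Pglyrp1, at 0.34, and the S-phase genes E2f8 and Uhrf1, at 0.41 and 0.42. Nearest to Orm1 was Cav2, a caveolin, at 0.17. Epb41l3 was nearest to Hp, at 0.21, and Tpra1 to Cp, at 0.08. Saa1, Saa2 and C3 were not good on all 7 arrays and were not ranked.

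Marker sums give the cells that each array could hold. The 4 arrays with the highest Orm1 (αERKO, labelled βERKO, WT with DMBA and WT at 24 days) were those with the highest adipocyte sums, from 1205 to 2799, against 326.0 to 460.2 on the other 3. The 3 arrays with the highest Chil1 (BALB/c with vitamin D5, BALB/c and WT at 10 days) were also those with the highest basal epithelial sums, from 594.7 to 835.0. The array labelled βERKO had nearly as much Chil1 as WT at 10 days (6.58 and 6.70), but basal sums of 333.2 and 730.0. The basal markers include Krt17, named above as near to Chil1. The 3 arrays with the highest Chil1 also had the highest Ltf and the highest neutrophil sums, from 41.6 to 65.0 against 17.7 to 31.5. The number of neutrophil markers called good did not follow these sums. Of 11, 7 were good on WT at 10 days, 8 on BALB/c and 7 on BALB/c with vitamin D5. On the αERKO array 10 were good, on the array labelled βERKO 8, in WT with DMBA 8 and in WT at 24 days 7. Mpo was good on 1 array and Retnlg on 1. Hepatocyte markers summed to 6.29 to 16.5, with Fga near background on every array and Alb good on 2. These are values over 7 arrays that differ in strain, genotype, time and treatment at once, and whether cell makeup sets the levels was not tested.

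**Figure D5:**
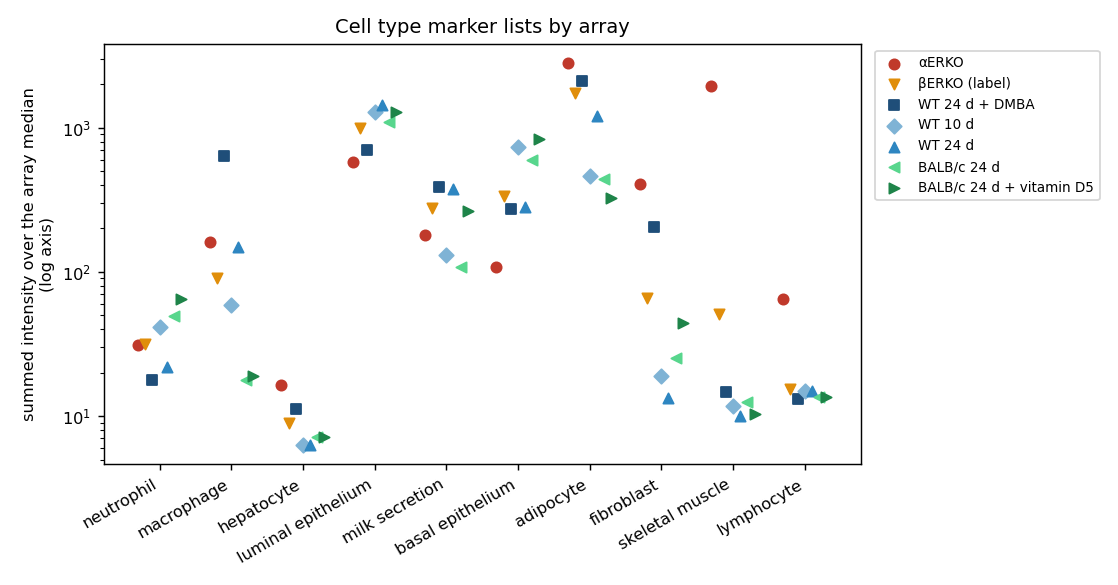
Summed level of each list of cell type markers on the 7 arrays, as multiples of the array median on a log axis; each point is 1 array. The αERKO array holds 1956 for skeletal muscle against at most 51.4 elsewhere, and WT with DMBA holds 637.7 for macrophages.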

How the data were processed

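RNA of cultured mammary glands was measured on 7 one-colour CodeLink arrays, 1 per group. The authors hybridized and scanned them, and the deposited intensity equals a spot's mean signal minus the local background median (checked on every row), beside a quality flag from CodeLink Expression Analysis; a deposited normalized intensity is that value over 1 constant per array. Intensities of gene probes were divided by their median on the array and log2 transformed, values at or below 0 being raised to the lowest positive value. Probes were named by RefSeq accession (14763 of 15553 with an accession, 13971 symbols), and the brightest probe stood for a gene. Genes with a good spot on at least 1 of 2 arrays were counted as over 2-fold or not; no test was made. Named genes were all members, up to 2 rises and 2 falls per list and comparison among genes over 2-fold and good on both arrays, Il1b, Il6, Tnf, Esr1, Esr2, and the 3 genes nearest to each member. The members and lists were chosen with earlier results of these data known. Counting was tested on simulated data. Python 3.11.15, pandas 2.3.3, numpy 2.4.6, R 4.3.3 and limma 3.58.1 were used. Alternatives were the 75th percentile, quantile, cyclic loess, normexp (offset 50), the deposited normalized values, other filters, the mean of probes, and 1.5-fold and 3-fold. The series table of normalized values was not used here.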

Additional observations from a re-analysis of the deposited data

How the results depend on the processing

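No paired analysis was possible because each group has 1 array. Of the log2 ratios of the 9 genes under other settings, 414 moved by less than the SD between probes and 35 by more, and 1 ratio over 2-fold turned direction: Saa2 in BALB/c against WT had -0.21 with the C57 array with DMBA as the comparator, against 1.54. For single genes this comparator was added after seeing the data. For the median of the 9, which was -0.26 with it, it was planned. In the tally of 414 and 35, some settings could move little by construction. Each gene had 1 probe, so the mean of probes changed nothing. The 75th percentile and the deposited normalized values shift a whole comparison by a constant. All 63 ratios stayed within the SD under each of these settings. With normexp, 16 moved by more than the SD and 47 by less. In DMBA against none, the median was 1.48 with quantile normalization and 1.497 with cyclic loess. Members over 2-fold were 3 in place of 5 in αERKO against WT when both spots had to be good, and 3 in αERKO against the array labelled βERKO under that filter and under normexp, where Saa1 (-0.97) and Saa2 (-0.57) fell within 2-fold. In αERKO against WT, normexp brought Ltf within 2-fold (0.88). With a 3-fold threshold, 3 were counted in DMBA against none and 0 with vitamin D5, where 1.5-fold gave 8. Scaling moved the median ratio of all genes by over 0.1 in αERKO against the array labelled βERKO, from -0.30 to -0.03 with cyclic loess, which changed the split of all genes from 1415 higher and 2425 lower to 1732 and 1694. The 75th percentile moved BALB/c against WT from -0.31 to -0.10 (753 and 1472 to 954 and 870). Cyclic loess moved DMBA against none from -0.15 to 0.01 (1411 and 947 to 1630 and 679). Smaller such shifts occurred in αERKO against WT and in the array labelled βERKO against WT. With vitamin D5 the 75th percentile moved the median from 0.16 to 0.03 (537 and 535 to 423 and 600). Normexp lowered the counts over 2-fold in every comparison, with vitamin D5 to 75 and 26, where the median was 0.12. Signal over background limits Saa1 and Saa2 on the αERKO array, which were near background.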
